A study of Ovis aries and Bos taurus with 6 samples.

Results

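The small RNA of extracellular vesicles (EVs) from the milk of Holstein cows in mid lactation was described from 3 libraries, which are all the cow libraries of a series of 6. The other 3 libraries are from the milk of Ordos fine wool sheep, also in mid lactation, and served here only as a list of names and sequences. The labels give no genotype or age for the cows, and their treatment field repeats the sentence written for the sheep. The cow data are said to be from an earlier study of the same group. Their column headings begin with Con, and no label says whether these cows were controls of another study. EVs were isolated with a precipitation kit for body fluids, which does not sort vesicles by the cell that shed them. The labels do not say whether the 3 cow libraries are from separate animals or pools, so the spread given here is the spread between these libraries and may be technical.

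EVs are small membrane particles that cells release, and in milk they are thought to come mainly from the secreting mammary epithelium and from cells that enter milk from the blood. They carry microRNAs (miRNAs), short RNAs that pair with messenger RNAs through the seed, bases 2 to 8 of the miRNA, and lower their translation and stability. miRNAs with the same seed form a family, hairpins that lie close together in the genome are often cut from one primary transcript, and either arm of a hairpin (5p or 3p) can give the mature miRNA.

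Of the 779 rows listed for cow, 276 have a miRBase name and 503 have none. All rows together held 328527, 556489 and 387723 counts in replicates 1, 2 and 3, and the named rows held 70490, 161240 and 61156. The cow table gives no sequences. For 42 of the named cow miRNAs the sheep table has a row of the same mature name with a sequence, and whether the cow reads have the same letters was not tested. The 8 of the 20 most abundant named cow miRNAs for which this holds are shown here with 3 relatives and the mammary gland miRNA miR-148a, as listed for sheep, 5′ to 3′ with the seed in capitals, to show which of them share a seed.
miR-26a: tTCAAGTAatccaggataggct
miR-26b: tTCAAGTAattcaggataggt
let-7f: tGAGGTAGtagattgtatagt
let-7b: tGAGGTAGtaggttgtgtggt
miR-30d: tGTAAACAtccccgactgg
miR-30a-5p: tGTAAACAtcctcgactggaagc
miR-191: cAACGGAAtcccaaaagcagct
miR-22-3p: aAGCTGCCagttgaagaactg
miR-150: tCTCCCAAcccttgtaccagtg
miR-10b: aCCCTGTAgaaccgaatttgtg
miR-10a: tACCCTGTagatccgaatttg
miR-148a: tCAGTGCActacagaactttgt

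The listed miR-10b starts 1 base later than the listed miR-10a, so their bases 2 to 8 differ although the letters overlap. Counted by these seeds, the 42 names fall into 28 groups, 9 of them with more than 1 member, and together hold 47.3% to 59.1% of the named counts of a library. The seed shares that follow cover these 42 names only, so family members without a listed sequence are left out. The miR-26 seed TCAAGTA took 18.0%, 20.9% and 15.6% of the named counts in replicates 1, 2 and 3, nearly all of it from miR-26a. The let-7 seed GAGGTAG took 7.32%, 8.35% and 8.41% over 6 names, without let-7a-5p, let-7e and miR-98. With those, the let-7 and miR-98 list took 10.3%, 11.1% and 11.8%. The seed of miR-191, AACGGAA, had no second member among the 42 names and took 11.3%, 17.5% and 8.78%. The miR-30 seed GTAAACA, with 3 names, took 2.97%, 3.49% and 2.54%.

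Most counts of each cow library fell outside the named miRNAs. In replicate 1 the share of named rows in all counts was 21.5%, with a 95% Wilson interval from 21.3 to 21.6. It was 29.0% (28.9 to 29.1) in replicate 2 and 15.8% (15.7 to 15.9) in replicate 3, a mean of 22.1% ± 6.62 (SD, n = 3). A single row without a miRBase name, listed as novel237_mature joined with novel503_mature, held 193448, 284690 and 267302 counts. That is 58.9% (58.7 to 59.1), 51.2% (51.0 to 51.3) and 68.9% (68.8 to 69.1) of the library. As shares of all counts, replicate 2 was highest in named rows and lowest in the large row, and replicate 3 the other way round. Both shares are parts of 1 total, so a high value of the large row leaves less for the named rows. In counts, replicate 2 was highest in the large row as well. With that row left out, named miRNAs took 52.2%, 59.3% and 50.8% of what remained. Wilson intervals of shares of the named counts or of all counts of a library reached at most 0.396 percentage points to either side. Shares within a hairpin or a list rest on fewer counts and are less precise. The intervals do not cover error other than that of counting, because PCR copies of a molecule are counted again.

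The deposited TPM values gave the same profile within a library, because each equals the count divided by 1 constant of that library. The constants were 13095531, 12584490 and 12427878, and all rows of the table amounted to 2.51%, 4.42% and 3.12% of them. The sources used here do not say what the constant counts. On this scale the named rows summed to 5383, 12813 and 4921 TPM, so that replicate 2 held more than the others, and the large row came to 14772, 22622 and 21508 TPM.

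miR-26a was the most abundant named miRNA in each of the 3 libraries. It is widely expressed and is best known for restraining the cell cycle and the histone methyltransferase EZH2. It had 12570, 32841 and 9258 counts, or 17.8%, 20.4% and 15.1% of the named counts, a mean of 17.8% ± 2.62 (SD, n = 3). miR-191, a ubiquitous miRNA often used as a reference in miRNA assays, followed with 11.3%, 17.5% and 8.78% (mean 12.5% ± 4.48). It held place 2 in replicates 1 and 2 and place 3 in replicate 3, where miR-486 passed it.

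**Figure D1:**
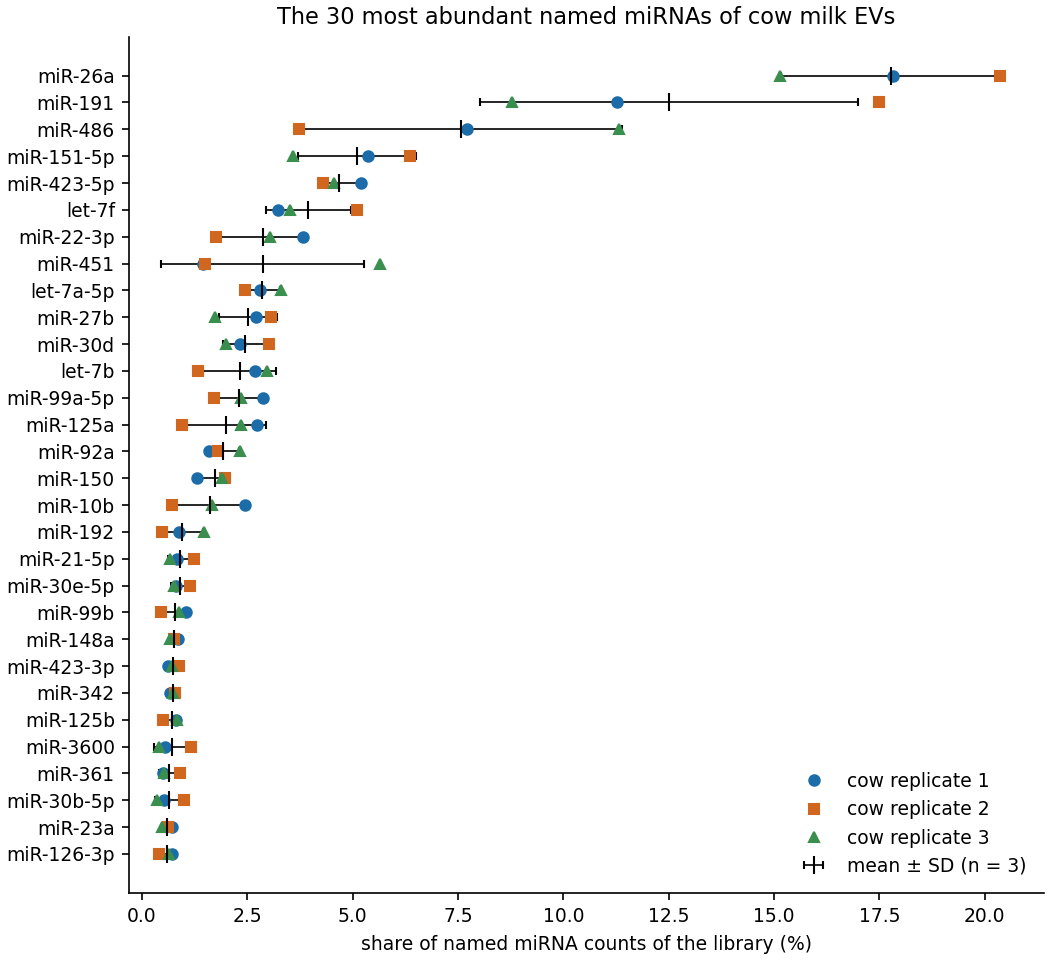
Share of named miRNA counts (x axis, %) of the 30 named miRNAs of highest mean share in cow milk EVs, with 1 point per replicate and the mean ± SD over the 3 libraries. miR-26a lies farthest to the right in each library. The points of miR-191 are spread most widely, followed by those of miR-486, miR-26a and miR-451. For miR-191 and miR-26a replicate 2 is highest and replicate 3 lowest, while for miR-486 and miR-451 replicate 3 is highest.

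miR-486, a miRNA abundant in red blood cells and also known from muscle, took 7.70%, 3.72% and 11.3%. miR-151-5p, from an intron of the focal adhesion kinase gene PTK2, took 5.35%, 6.36% and 3.59%. miR-423-5p, a ubiquitous miRNA, held place 5 in each library, with 5.19%, 4.28% and 4.56%. let-7f, a member of the let-7 family that restrains proliferation and marks differentiated cells, took 3.22%, 5.10% and 3.51%. The order of these 4 changed between libraries: in each neighbouring pair the order seen in the means held in only 2 of the 3.

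The places from 7 to 17 were held by miR-22-3p (2.87% ± 1.04), the red blood cell miRNA miR-451 (2.86% ± 2.41), let-7a-5p (2.85% ± 0.425), miR-27b (2.51% ± 0.688), miR-30d (2.45% ± 0.525), let-7b (2.33% ± 0.865), miR-99a-5p (2.30% ± 0.585), miR-125a (2.01% ± 0.944), miR-92a (1.92% ± 0.378), the lymphocyte miRNA miR-150 (1.73% ± 0.366) and the Hox cluster miRNA miR-10b (1.61% ± 0.875). miR-192, best known from gut, liver and kidney epithelium, took 0.949% ± 0.500. miR-21-5p, which rises in many proliferating and inflamed tissues, took 0.908% ± 0.296, and miR-30e-5p 0.904% ± 0.211. In all 19 pairs of neighbours among the 20 most abundant names the ranges of the 3 libraries overlapped, and in 3 pairs the order was the same in each library: miR-26a above miR-191, miR-99a-5p above miR-125a, and miR-10b above miR-192. With overlap in all 19 pairs, the order of the means is not finer than the spread between libraries. The 3 pairs of constant order are no exception, since neighbours were sorted by the means of these same libraries.

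Of the 5 names of highest share in each library, 3 were common to all libraries: miR-26a, miR-191 and miR-423-5p. Of the first 10, 7 were common, adding miR-486, miR-151-5p, let-7f and let-7a-5p. Of the first 20, 16 were common, and of the first 50, 41. Ranked without any 1 of the libraries, miR-26a and miR-191 kept their places, and the first 10 shared 9 names with the ranking over all 3.

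The named profile was concentrated in few miRNAs. The 5 most abundant of each library held 47.3%, 53.6% and 45.4% of its named counts. The 10 names of highest mean share held 61.4%, 66.1% and 60.6%, a mean of 62.7% ± 2.96 (SD, n = 3). The first 20 held 79.8% ± 0.677 and the first 50 held 94.5% ± 0.449. To reach 50% of the named counts took 6, 5 and 7 names, and to reach 90% took 36, 34 and 38. The effective number of miRNAs (the exponential of the Shannon entropy, the number of equally abundant miRNAs that would give the same evenness) was 30.6, 26.0 and 33.1. Replicate 2, in which miR-26a and miR-191 alone took 20.4% and 17.5%, was the most concentrated of the named profiles and replicate 3 the least.

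Over all 779 rows the picture was set by the large row without a name. There 1 row passed 50% of the counts in each library, and 21, 19 and 15 rows reached 90%. The effective number of rows was 8.98, 10.2 and 5.84. By the effective number, replicate 3 was the most concentrated library over all rows and the least concentrated over named rows.

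**Figure D2:**
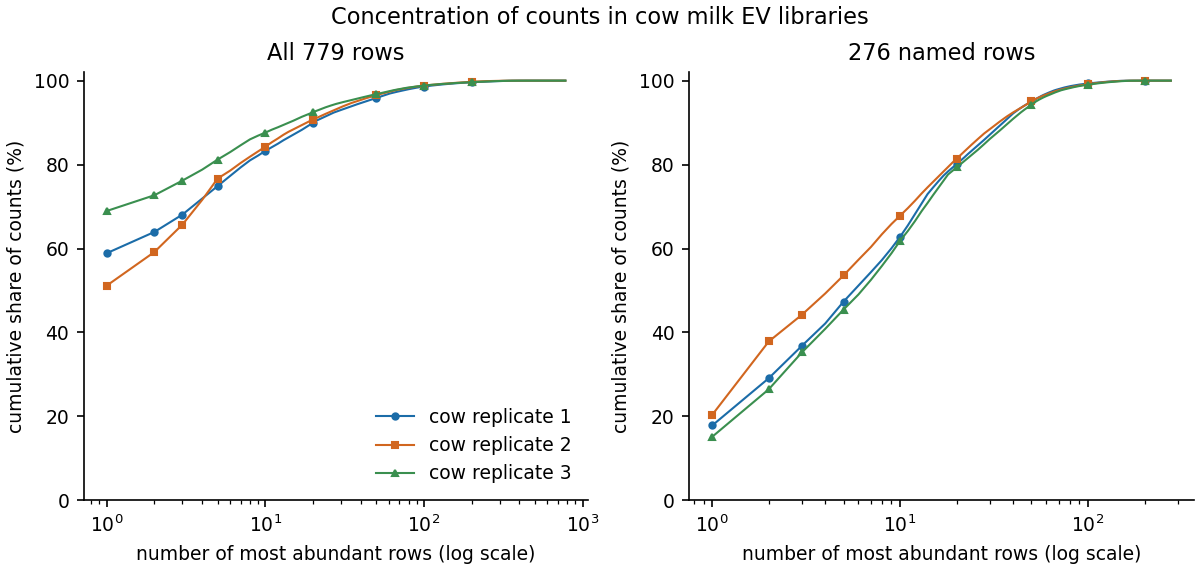
Cumulative share of counts (y axis, %) against the number of most abundant rows (x axis, log scale) for all 779 rows (left) and the 276 named rows (right), 1 line per cow replicate. On the left the first row alone gives 51.2% to 68.9% of the counts, and on the right the first 10 rows of each library give 61.8% to 67.8%.

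Detection was counted as at least 10 counts in a library. By that rule 123, 146 and 126 named miRNAs were detected in replicates 1, 2 and 3, and 97 in all 3. Another 28 were detected in 2 libraries, 48 in 1 and 103 in none, of which 33 had no count in any library. The 97 names held at least 98.6% of the named counts of each library. Replicate 2 has the highest depth, and thinned to 61156 named counts the libraries showed 116, 122 and 126 names. A count of 0 in a library allows up to 0.00186% of the named counts in replicate 2 and up to 0.00491% in replicate 3.

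Some named miRNAs appeared in 1 library alone with more counts than the limit of the others. 24 names had at least 10 counts in 1 library and 0 in both others: 5 in replicate 1, 11 in replicate 2 and 8 in replicate 3. Together they held 571 counts. The largest, chosen after their values were seen, were miR-10175-5p with 75 counts in replicate 2, miR-106b with 66 in replicate 3, and miR-339b with 42 in replicate 1. miR-106b is a cell cycle miRNA of the miR-25 cluster, and its partners there were found in each library.

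Between libraries the named miRNAs agreed in rank and less in level. Across the 142 names with a mean of at least 10 counts, Spearman's rho was 0.880 for replicates 1 and 2, 0.851 for replicates 1 and 3 and 0.828 for replicates 2 and 3. These correlations run across miRNAs of the same libraries, which share depth and preparation and are not independent, and carry no p. Of the 142 names, 86 lay within 2-fold of each other between replicates 1 and 2, 79 between replicates 1 and 3 and 66 between replicates 2 and 3, on the scale of CPM (counts scaled to the same named total) plus 1. Among the 68 names with a mean of at least 100 counts, 51, 56 and 41 lay within 2-fold and at most 3 differed by more than 4-fold in a pair.

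**Figure D3:**
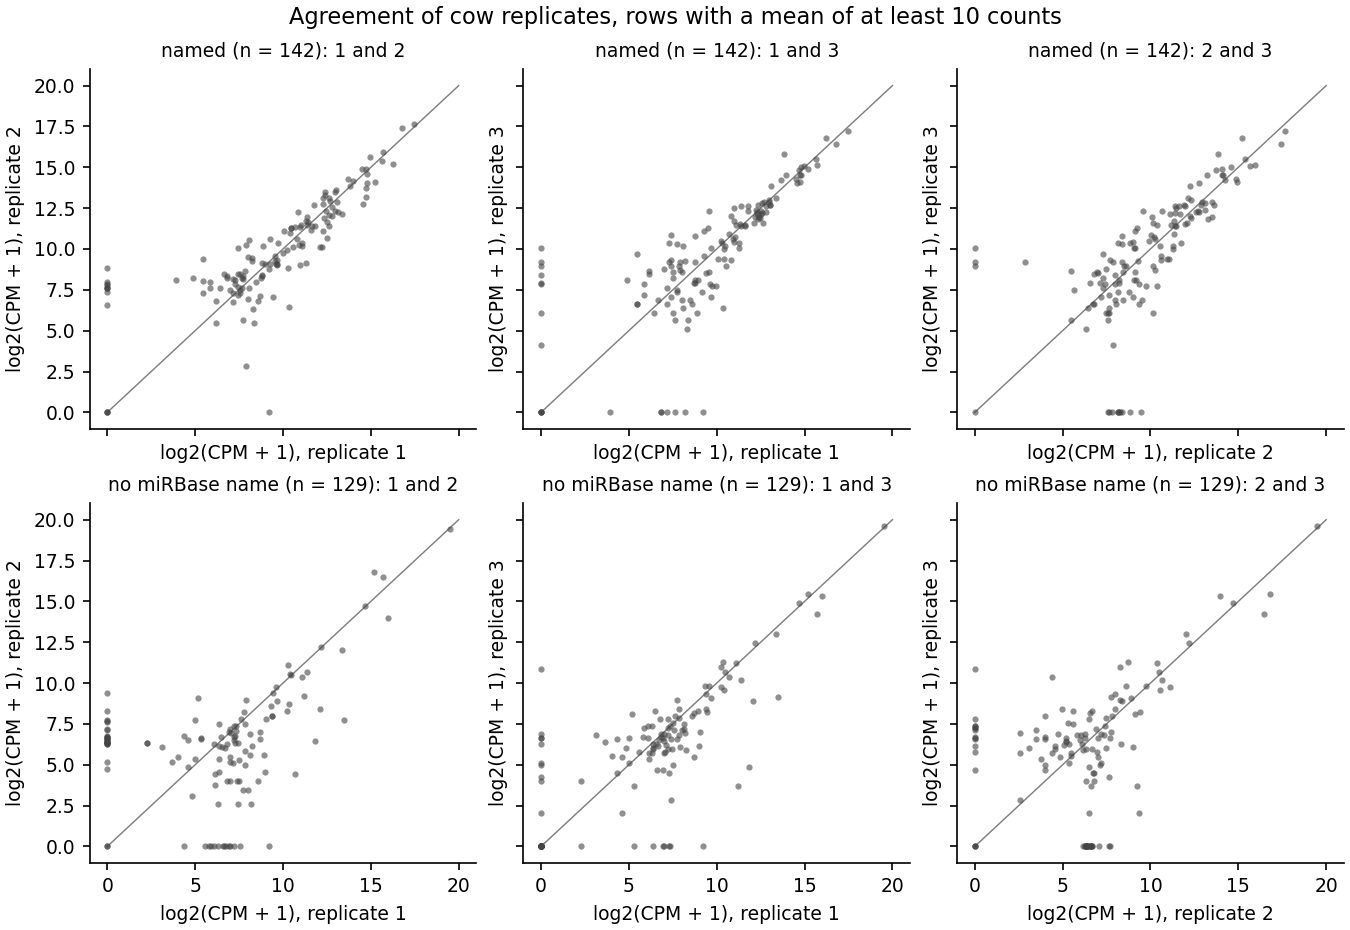
Values of each pair of cow replicates on a log2(CPM + 1) scale, for named miRNAs (top, n = 142) and rows without a miRBase name (bottom, n = 129), with CPM taken within each kind of row and the grey line marking equal values. Spearman's rho is 0.828 to 0.880 in the top panels, and in the bottom panels it is 0.684 for replicates 1 and 3 and at most 0.345 in the pairs with replicate 2.

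The coefficient of variation (SD over mean of the share of named counts, n = 3) had a median of 0.520 over the 142 names and of 0.357 over the 68 names with at least 100 counts on average. Counting error alone would give medians of 0.116 and 0.0510. The counting values are given for scale, since separately prepared libraries usually differ by more than counting error. As a check for a library deposited more than once, the chi-square statistic over its degrees of freedom across the 142 names was 87.7, 41.7 and 140 for replicates 1 and 2, 1 and 3, and 2 and 3, where a repeated library would give about 1 or less.

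Among names with at least 100 counts on average, the 5 most even were miR-24-3p, miR-342, miR-423-5p, miR-29a and miR-148a. miR-24-3p, a ubiquitous miRNA of the miR-23 and miR-27 clusters, took 0.265%, 0.279% and 0.276% of the named counts. miR-342, a miRNA of lymphoid cells, took 0.661%, 0.793% and 0.747%. miR-29a, which targets collagen transcripts, took 0.316%, 0.269% and 0.267%. miR-148a, which is abundant in the lactating mammary gland, was at place 22, with 600, 1217 and 402 counts or 0.851%, 0.755% and 0.657% of the named counts.

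The 5 most uneven were miR-144, miR-451, miR-146b, miR-30f and miR-339a. miR-144 had 53, 122 and 309 counts, which is 0.0752%, 0.0757% and 0.505% of the named counts. miR-451 had 1025, 2399 and 3454 counts, or 1.45%, 1.49% and 5.65%, and stood at places 16, 14 and 4. For both, replicates 1 and 2 were alike as shares of named counts and replicate 3 was higher. In TPM replicate 2 was also above replicate 1, with 4.05, 9.69 and 24.9 for miR-144 and 78.3, 191 and 278 for miR-451. miR-146b, an inhibitor of innate immune signalling, took 0.0738%, 0.0608% and 0.245%, again with replicate 3 highest. miR-30f was highest in replicate 1 (0.250%, 0.0564% and 0.105%), and miR-339a was lowest there (0.0270%, 0.150% and 0.114%).

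**Figure D4:**
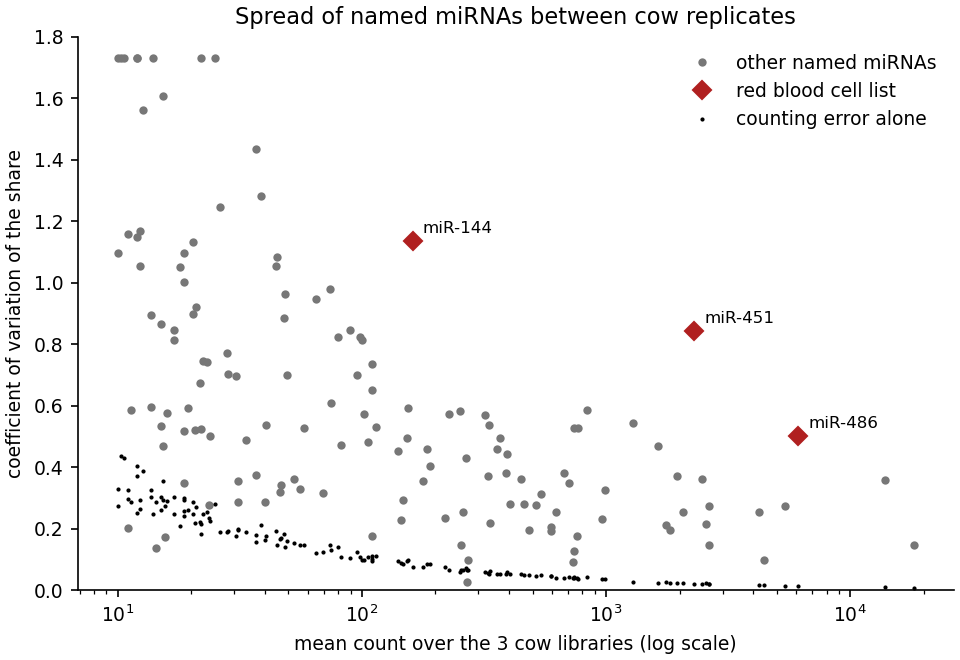
Coefficient of variation of the share of named counts over the 3 cow libraries (y axis) against the mean count (x axis, log scale) for the 142 named miRNAs with a mean of at least 10 counts; small black points give the value from counting error alone. miR-144 and miR-451 lie above the other names of like count, at 1.13 and 0.842.

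The red blood cell list (miR-451, miR-486 and miR-144) was found whole and took 9.23%, 5.28% and 17.5% of the named counts. miR-451 and miR-144 are cut from one transcript in developing red cells, and miR-451 is made without Dicer. Its 3 members were each highest in replicate 3 as shares of named counts, and remained so as shares of all rows, with TMM factors and in TPM. For miR-486 the ratio of the highest to the lowest library was 3.04 as a share of named counts but 1.34 in TPM (414.7, 476.4 and 557.0), and for miR-144 it was 6.72 and 6.14. In EVs, more vesicles from a cell type and more of a miRNA per vesicle cannot be told apart.

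Of the 7 leukocyte hairpins (miR-142, miR-150, miR-155, miR-146a, miR-146b, miR-223 and miR-342) all were found, in 8 rows of which 6 had at least 10 counts in each library. The list took 2.29%, 3.17% and 3.18%. miR-150, a marker of mature lymphocytes, made up 57.2% to 62.1% of it, and miR-342 23.5% to 28.9%. The neutrophil and monocyte miRNA miR-223 had 18, 119 and 7 counts, and the activation-induced miR-155 had 35, 87 and 17. miR-142 was listed in both arms, with 12, 170 and 114 counts of miR-142-5p against 0, 0 and 1 of miR-142-3p.

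The epithelial list was near the bottom of the range. Of its 7 hairpins 6 were found, and they summed to 158, 41 and 56 counts, or 0.224%, 0.0254% and 0.0916% of the named counts. The miR-200 family, which keeps cells epithelial by repressing ZEB1 and ZEB2, was represented by all 5 members, none with 10 counts in each library. miR-200a had 92, 14 and 5 counts, miR-200c 7, 2 and 17, miR-141 4, 2 and 11, miR-429 7, 1 and 0, and miR-200b 0, 1 and 0. miR-205, a miRNA of basal mammary epithelium, had 48, 21 and 23 counts and was the single member of the list above 10 counts in each library. Reads of these miRNAs may also lie in rows without a name, which was not tested.

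Markers of other cell types were unequal. The endothelial miRNA miR-126 took 1.30%, 0.732% and 1.10% over both arms. The stromal and smooth muscle list took 0.298%, 0.362% and 0.824%, of which miR-143 made up 69.0% to 76.7%, while miR-145 had 1, 3 and 8 counts. The liver miRNA miR-122 had 333, 178 and 247 counts (0.472%, 0.110% and 0.404%). The striated muscle list summed to 11, 11 and 21 counts over 5 hairpins found. Of the endocrine and sensory list, miR-375 had 41, 71 and 10 counts, and the miR-183 cluster members miR-182, miR-96 and miR-183 had 11, 3 and 5 counts in replicate 1, 45, 25 and 7 in replicate 2 and 79, 51 and 25 in replicate 3. The neuronal list was represented by 1 row, miR-124a joined with miR-124b, at 0 in each library.

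**Figure D5:**
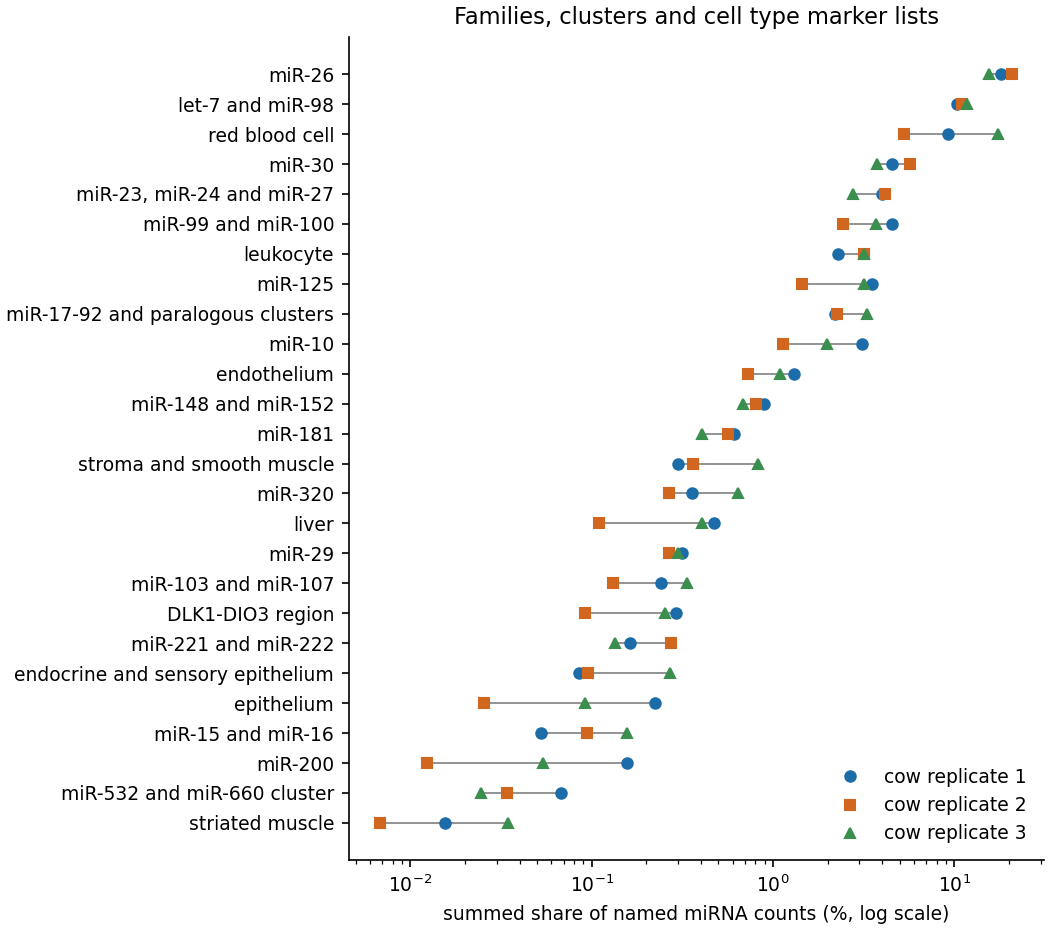
Summed share of named counts (x axis, %, log scale) of each family, cluster and marker list with counts, 1 point per cow replicate. The let-7 points lie close together near 11%, while the miR-200, epithelial, striated muscle and liver points of 1 list lie more than 4-fold apart.

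Families differed in how evenly they were shared between libraries. The let-7 and miR-98 family was found whole, with 9 of 9 members at 10 or more counts in each library, and took 10.3%, 11.1% and 11.8% of the named counts, the smallest relative spread among the 26 lists with counts. Within it the members changed places: let-7f made up 46.1% of the family in replicate 2 and 31.2% and 29.7% in the others, while let-7b made up 12.1% there against 25.9% and 25.1%. let-7 members differ by few bases, so that reads may have been divided between them by the counting, and single members are uncertain to that extent. The miR-26 family took 18.1% ± 2.66, with miR-26b at 129, 795 and 253 counts.

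The miR-30 family, found whole with 6 members, took 4.55%, 5.69% and 3.77%. miR-30d made up 51.3% to 53.0% of it in each library, and miR-30e-5p 17.6% to 20.3%. miR-99a-5p made up 63.3% to 70.0% of the miR-99 and miR-100 list (3.55% ± 1.06 of named counts). The miR-125 list, related to C. elegans lin-4, took 2.72% ± 1.12 and was led by miR-125a (65.1% to 77.4%). The Hox cluster miRNAs miR-10a and miR-10b took 3.09%, 1.14% and 1.98%, and the share of miR-10b within the pair ran from 61.6% in replicate 2 to 84.5% in replicate 3. In the lists miR-10, miR-99 and miR-100, and miR-125, replicate 1 was highest and replicate 2 lowest as shares of named counts, and replicate 1 was also highest as shares of all rows.

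Of the miR-17-92 and paralogous clusters, known for driving proliferation, 8 of 14 hairpins were found (2.59% ± 0.630). miR-92a made up 70.5% to 80.4% of the list and miR-25, which shares its seed, 16.8% to 23.6%. miR-17-5p had 9, 3 and 12 counts and miR-20a 13, 25 and 18. The miR-15 and miR-16 list, abundant in blood cells, summed to only 37, 151 and 96 counts. The miR-148 and miR-152 family took 0.795% ± 0.106, with miR-148b at 30, 48 and 15 counts and miR-152 at 0, 37 and 1. Of the 57 hairpins listed for the imprinted DLK1-DIO3 region 23 were found, and 1, miR-127, had 10 counts in each library (140, 83 and 84). The miR-34 and miR-449 list was represented by miR-34a, at 0 in each library.

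Over the 26 lists with counts, 11 differed by less than 2-fold between the highest and the lowest library and 4 by more than 4-fold. The lists overlap: the miR-200 and epithelial lists, both among these 4, share the 5 miR-200 rows. Replicate 2 was lowest in 13 of the 26 lists as shares of named counts, and highest in 4. It was highest in 11 lists as shares of all rows. As shares of all rows the library that was highest stayed the same in 19 of the 26 lists, so which library is highest depends on the denominator for the other 7.

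Some hairpins cut from one primary transcript were present at unequal levels. In 12 pairs chosen with these values known, the same partner was higher in each library, and in 6 pairs by more than 10-fold in each. These counts of pairs depend on that choice and do not describe hairpins of one transcript in general. miR-191 exceeded miR-425-5p, its neighbour in the same transcript, 112, 201 and 413-fold (7939, 28187 and 5367 counts against 71, 140 and 13). miR-192 exceeded miR-194, 62.3, 31.2 and 75.3-fold. miR-27b exceeded miR-23b-3p, 13.9, 25.0 and 11.0-fold, and miR-451 exceeded miR-144, 19.3, 19.7 and 11.2-fold. The ratio was steadier for miR-99a-5p over let-7c (9.28, 7.37 and 8.19), miR-221 over miR-222 (6.67, 8.63 and 7.20) and miR-125a over miR-99b (2.61, 2.06 and 2.68). These are ratios of counts, and miRNAs differ in how well adapters join them, so they are not ratios of molecules.

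Arms of 1 hairpin kept their order. Both arms were named for 13 hairpins, and 7 of these had at least 20 counts of both arms together in each library. In all 7 the same arm was the larger in each library, 5p in 2 and 3p in 5. miR-151 gave 95.7% ± 0.764 of its counts from 5p, on 3774, 10251 and 2197 counts of 5p against 177, 542 and 80 of 3p. miR-423 gave 86.3% ± 3.15 from 5p. miR-22 gave 99.4% from 3p, with 0, 27 and 14 counts of 5p. miR-10174 and miR-23b gave 99.6% and 100% from 3p, and miR-199a, chosen after its values were seen, gave 86.9% ± 12.9. The counts of miR-199a were 2, 21 and 6 for 5p and 31, 54 and 109 for 3p. miR-126 was the most balanced, with 44.6%, 44.5% and 41.3% from 5p, and with a Wilson interval of 41.4% to 47.8% in replicate 1.

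Of the 276 named cow rows, 234 have no row of the same mature name in the sheep table, and 42 do. The names found only in the cow table took 47.5%, 40.9% and 52.7% of the named cow counts. They include miR-486, miR-151-5p, miR-423-5p, miR-451, let-7a-5p, miR-27b, miR-99a-5p, miR-125a, miR-92a and miR-192, the 10 most abundant of them. The sheep table lists 84 named rows, so this set depends on which names were given to rows of each table. For 40 of the 234 names the sheep table holds another arm or lettered copy, or the same miRNA without an arm suffix. The 194 without any such row took 32.2%, 28.4% and 39.7% of the named counts.

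Most of the counts of cow-only names, like most of all named cow counts, lie in low-numbered miRNAs, the names given early. Names numbered from miR-2284 upward, among them large groups described in cattle, made up 66 of the 234 and took 1.03%, 1.98% and 1.13% of the named counts. None of them occurs in the sheep table. 7 of the 66 had at least 10 counts in each library and 15 had none in any. Over all 276 named rows these numbers were 97 and 33. miR-3600 led them with 383, 1885 and 241 counts, followed by miR-10174-3p with 116, 420 and 120 and miR-6529a with 75, 347 and 41. The 20 names of the large cattle groups miR-2284 and miR-2285 summed to 51, 200 and 57 counts.

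Rows without a name were fewer in effect than in number. The 5 largest held 73.1%, 68.7% and 80.5% of all counts of the libraries, and the other 498 held 5.44%, 2.29% and 3.78%. After the large row came novel30_mature (2.97%, 8.03% and 3.76% of all counts), novel135_mature (4.13%, 6.51% and 1.65%), novel68_mature (5.07%, 1.14% and 3.48%) and novel213_mature (2.05%, 1.90% and 2.62%). novel30_mature and novel135_mature were highest in replicate 2, and novel68_mature was lowest there. The 18 rows listed as star strands, a name usually given to the less abundant arm, took 0.0104% ± 0.00158 of all counts. None had 10 counts in each library. The name did not always mark the smaller row here: novel290_star had 0, 36 and 0 counts and novel290_mature 0, 0 and 17.

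Fewer of the rows without a name were shared by the libraries. Of 222 such rows with at least 10 counts in some library, 54 had them in all 3, or 24.3%, against 97 of 173 named rows, or 56.1%. Across the 129 rows with a mean of at least 10 counts, Spearman's rho was 0.684 for replicates 1 and 3, but 0.345 for replicates 1 and 2 and 0.303 for replicates 2 and 3. The filter bears on these values, since 16 of the 129 rows passed it with counts in replicate 2 alone, against 3 in replicate 1 alone and 2 in replicate 3 alone. Across the 28 rows with a mean of at least 100 counts rho was 0.615 for replicates 1 and 2, 0.559 for replicates 1 and 3 and 0.623 for replicates 2 and 3. There, 9 rows differed by more than 4-fold between libraries, and 1 more was at 0 in 2 libraries: novel166_mature, with 616 counts in replicate 3. novel9_mature had 2912, 84 and 183 counts, chosen after its values were seen. The part of depth and of the rules for calling new rows in this difference was not tested.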

How the data were processed

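Small RNA reads of milk EVs were measured in 3 cow libraries, used here, and 3 sheep libraries, used for names and sequences. A TruSeq small RNA kit was used for the libraries, with adapter ligation, reverse transcription and PCR, per the labels' protocols. cutadapt 1.14 and Bowtie were used, per the submitters' processing notes. The sources used here give no genome build, miRBase release or counting tool. The authors deposited whole-number counts per miRNA row and TPM values, and the TPM were checked to equal the count over 1 constant per library. No row was left out of the totals.

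Shares were computed per library (Python 3.11.15, numpy 2.4.6, pandas 2.3.3, scipy 1.17.1), with named counts as denominator unless stated, and given with mean and SD. With 1 group there is no test. TMM factors came from edgeR 4.0.16 and size factors from DESeq2 1.42.0. The 28 lists match hairpin names, both arms. The text names the 20 most abundant named miRNAs, the 5 most and 5 least variable with at least 100 counts on average, up to 4 members of each list, 10 names found only in the cow table, 8 hairpins with both arms and 5 rows without a name, and further members of the leukocyte, epithelial and other lists, the 12 cluster pairs and the single-library rows were added with their values known. The members and lists were chosen with earlier results of these data known.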

Additional observations from a re-analysis of the deposited data

How the results depend on the processing

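No paired analysis was possible because the results come from 1 group and no test. The share of named miRNAs became 54.1% without the largest row, and the inverse Simpson number, which weighs abundant miRNAs more, was 14.6 in place of 29.9. The mean correlation between replicates across named miRNAs was 0.853 by Spearman, and 0.735 and 0.822 by Pearson on log2(CPM + 1) and log2(CPM + 10), and 0.784 without a filter on low counts. Leaving out 1 library leaves 1 pair, so this alternative, chosen after the data were seen, only repeats the values of single pairs given above. They ran from 0.828 to 0.880 for named miRNAs and from 0.303 to 0.684 for rows without a name. The share of names found only in the cow table fell from 47.04% to 33.4% when arm suffix and lettered copy were ignored. The other 38 recomputed values of these summary results moved by less than the spread between libraries, or, for counts and the median coefficient of variation, by less than 1.5 times. For part of them this was fixed in advance and is no check. With 3 libraries, leaving out 1 cannot move a mean by as much as the SD. The share of named miRNAs is the same in TPM as in counts, because the constant cancels. The median coefficient of variation was 0.517 with TMM factors, 0.508 with DESeq2 size factors and 0.763 in TPM. The depth of 61156 to 161240 named counts limits statements on miRNAs below about 49.1 CPM.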
